A study of Mus musculus with 9 samples.

Results

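The subject is Mr1 together with 9 further genes of major histocompatibility complex (MHC) class I presentation, namely B2m, H2-K1, H2-D1, H2-T23, Tap1, Tap2, Tapbp, Psmb8 and Psmb9, in the cortex of Cnot3 mutant mouse embryos. The 10 genes were listed by symbol and matched to Ensembl identifiers of the count table, which holds 57010 genes. All 10 were found, and 6 of them (Mr1, B2m, H2-K1, H2-D1, H2-T23 and Tapbp) had more than 10 reads in every embryo and were tested. The list was drawn up with earlier results of these data known, and Mr1 was chosen by its rise over control in both mutants, so the difference between Mr1 in the mutants and in control is described without a test.

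Cortices were microdissected from single embryos at E12.5, and poly(A) RNA was sequenced, 1 library per embryo, from 3 embryos of each genotype: control (Ctrl), the single mutant Cnot3 cKO and the double mutant Cnot3;Trp53 dcKO. The cKO embryos lose a floxed Cnot3, which encodes a subunit of the CCR4-NOT deadenylase complex, through Emx1-Cre, and the dcKO embryos lose floxed Cnot3 and floxed Trp53 through the same driver. Emx1-Cre acts in radial glial cells of the dorsal telencephalon and in their progeny, so microglia, vessels and meninges in the dissected tissue keep their alleles. The labels give the controls as WT, and the sources used here do not say whether they carried floxed alleles or Cre, nor the strain. The values are raw numbers of reads counted per gene, with totals of 21193798 to 28869816 in Ctrl, 24835674 to 25946075 in cKO and 23275370 to 45073349 in dcKO. Levels are given as CPM, read counts brought to a common library size with TMM factors. In bulk tissue, fewer cells of a type and less RNA per cell cannot be told apart.

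Class I molecules show peptides from inside the cell to CD8 T cells and natural killer cells. Proteasomes cut the peptides, the immunoproteasome subunits PSMB8 and PSMB9 replacing constitutive ones, the TAP1-TAP2 transporter carries them into the endoplasmic reticulum, and tapasin (Tapbp) helps load them onto a heavy chain paired with beta-2-microglobulin (B2m). Interferons raise most of these genes together. MR1 has the same fold and also needs beta-2-microglobulin, but it presents small metabolites of microbial vitamin B synthesis to MAIT cells. Neurons and their progenitors are known for low class I expression.

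Cnot3 and Trp53 were read first as a check of the labels. Cnot3 was at 107 ± 9.54 CPM (SD, n = 3) in Ctrl, and at 0.14, 0.161 and 0.136 of the control mean in cKO replicates 1 to 3. In dcKO replicates 1, 2 and 3 it was at 0.0685, 0.450 and 0.178 of the control mean. Trp53 was at 0.0643, 0.47 and 0.0879 of the control mean in those embryos, against 0.700 to 0.713 in cKO. The dcKO replicate 2 library, which is the deepest of the 9, therefore kept far more Cnot3 and Trp53 mRNA than any other mutant that should lack it. These levels put the label or the dissection of that library in doubt, which was not tested, and dcKO replicate 2 below means the library so labelled. It stands apart for class I genes as well, and the counts of called genes are given with and without it.

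The promoters of Mr1, B2m and the classical heavy chains H2-K1 and H2-D1 are shown because they let the reader compare Mr1 with genes whose interferon control is well described. They are RefSeq sequences on GRCm38.p6, from 250 bases before to 50 bases after the annotated start, on the strand of the gene. Capitals mark any match on either strand to GAANNGAAA or GAAA-NN-GAAA (spacings of the interferon response core), CCAAT or TGACG (a CRE-type core), 4 motifs chosen with these windows already seen. No matches overlap in the windows shown.
Mr1, chr1:155146765-155147064, minus strand: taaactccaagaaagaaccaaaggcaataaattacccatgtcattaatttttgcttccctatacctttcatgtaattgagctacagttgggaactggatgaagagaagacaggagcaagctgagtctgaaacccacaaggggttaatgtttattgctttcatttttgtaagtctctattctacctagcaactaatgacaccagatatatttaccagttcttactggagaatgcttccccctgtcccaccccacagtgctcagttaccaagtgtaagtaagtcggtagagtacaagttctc
B2m, chr2:122147437-122147736, plus strand: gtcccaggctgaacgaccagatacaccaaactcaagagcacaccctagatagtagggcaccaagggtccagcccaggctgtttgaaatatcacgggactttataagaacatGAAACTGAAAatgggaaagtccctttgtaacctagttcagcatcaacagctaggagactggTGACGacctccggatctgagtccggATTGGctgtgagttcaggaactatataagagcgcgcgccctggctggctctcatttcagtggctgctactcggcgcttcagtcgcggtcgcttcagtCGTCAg
H2-K1, chr17:34000298-34000597, minus strand: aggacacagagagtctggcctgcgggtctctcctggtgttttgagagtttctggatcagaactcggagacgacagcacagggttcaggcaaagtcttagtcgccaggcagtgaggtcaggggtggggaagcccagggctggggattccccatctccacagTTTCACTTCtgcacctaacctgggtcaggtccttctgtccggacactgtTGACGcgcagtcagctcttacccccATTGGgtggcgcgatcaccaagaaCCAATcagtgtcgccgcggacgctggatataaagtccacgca
H2-D1, chr17:35262844-35263143, plus strand: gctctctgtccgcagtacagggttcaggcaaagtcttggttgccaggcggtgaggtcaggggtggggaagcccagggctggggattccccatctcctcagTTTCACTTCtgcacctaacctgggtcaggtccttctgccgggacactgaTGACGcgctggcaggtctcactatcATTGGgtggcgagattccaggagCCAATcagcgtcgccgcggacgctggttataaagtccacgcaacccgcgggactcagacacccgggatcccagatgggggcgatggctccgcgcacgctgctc

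The Mr1 window held none of the 4 motifs. H2-K1 and H2-D1 each held 1 GAANNGAAA, 2 CCAAT and 1 TGACG, and their GAANNGAAA match began 90 bases before the start in H2-K1 and 150 bases before it in H2-D1. B2m held 1 GAAA-NN-GAAA, which began 139 bases before the start, 1 CCAAT and 2 TGACG. RefSeq had a window for 9 of the 10 genes. Of these 9, GAANNGAAA was in 2, GAAA-NN-GAAA in 2 (B2m and H2-T23), CCAAT in 7 and TGACG in 5, against 7.52%, 3.44%, 37.4% and 20.8% of all 32851 promoter windows of that length. Either of the interferon cores was in 4 of the 9, against 10.4% of all windows. Tap1 (chr17:34187306-34187605, plus strand) and Psmb9 (chr17:34187281-34187580, minus strand) lie head to head, so their windows are for the most part the same bases and count as 1 stretch of sequence. The windows of H2-K1 and H2-D1, which hold both GAANNGAAA matches, also share long runs of the same letters, so those matches are not independent. All these matches are descriptions of letters in a window and say nothing of binding.

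Mr1 (ENSMUSG00000026471; GRCm38 chr1:155127277-155146814, minus strand) was low and even in Ctrl, at 0.530, 0.545 and 0.541 CPM, or 11 to 15 reads. It was at 6.20, 5.21 and 6.33 CPM in cKO and at 15.7, 1.28 and 4.18 CPM in dcKO. Every mutant embryo lay above every control embryo, and dcKO replicate 1 was the highest and dcKO replicate 2 the lowest of the 6 mutants. Against the control mean this was 11.1, 9.33 and 11.3-fold in cKO and 28.1, 2.30 and 7.51-fold in dcKO. The fitted log2 fold change was 3.45 (SE 0.78) in cKO and 3.70 (SE 0.79) in dcKO, which placed Mr1 at rank 3 and rank 1 of the 13680 genes tested. The dcKO value leaned on replicate 1, for without that embryo it was 2.32, at rank 13 of 13731 genes, and without dcKO replicate 2 it was 4.20. Between the mutants, which the choice of Mr1 did not use, Mr1 differed by 0.26 (SE 0.68) on the log2 scale, dcKO minus cKO, with an adjusted p-value of 0.985 by edgeR's quasi-likelihood test. That error leaves room for a difference of either sign, and without dcKO replicate 1 the value was -1.13.

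**Figure D1:**
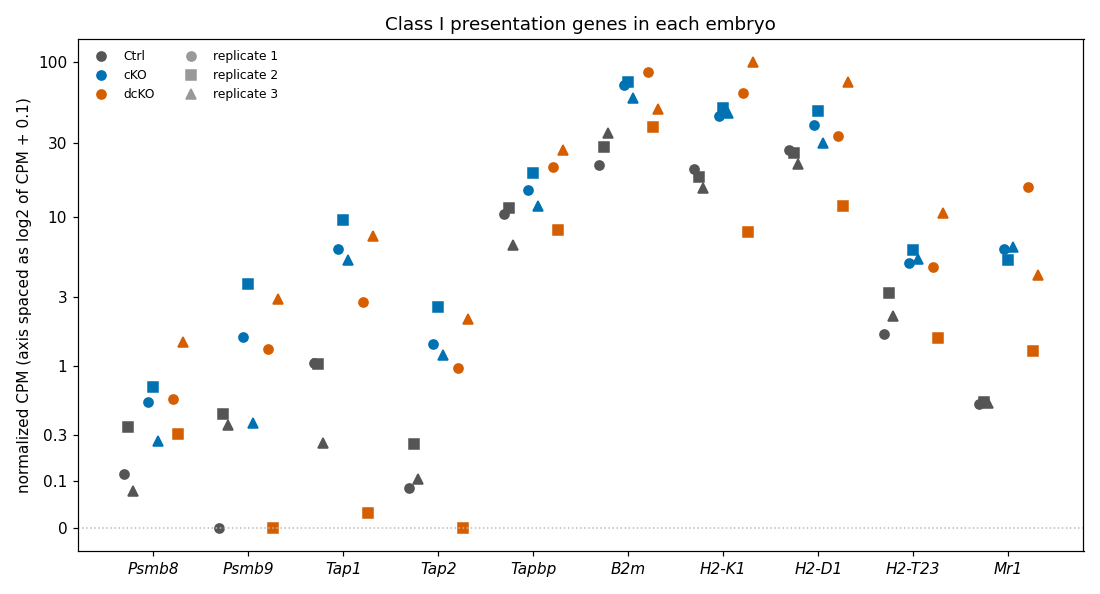
Normalized CPM of the 10 genes in each of the 9 embryos, on an axis spaced as log2(CPM + 0.1), with grey for Ctrl, blue for cKO and orange for dcKO and with circle, square and triangle for replicates 1, 2 and 3. The 3 control points of Mr1 lie together near 0.54 CPM with all 6 mutants above them, while the square of dcKO replicate 2 lies at or below control level for most other genes.

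The order of the 6 mutants in Mr1 was the exact reverse of their order in Cnot3. From the least Cnot3 to the most, dcKO replicate 1, cKO replicates 3, 1 and 2, and dcKO replicates 3 and 2, Mr1 went from 28.1 through 11.3, 11.1, 9.33 and 7.51 to 2.30-fold of the control mean. The median ratio of the other 5 tested class I genes did not keep that order: in the same sequence it was 2.28, 2.10, 2.18, 2.64, 3.00 and 0.694. The exact reverse order was also held by 0 of these 5 genes singly and by 53 of the 13680 tested genes, Mr1 included, or 0.387%. Being highest in dcKO replicate 1 and lowest in dcKO replicate 2 of the mutants was not particular to Mr1. Among genes named here it was shared by B2m, Erap1, H2-Q4, Ddx58, Trim25 and Trim21. The 5 genes picked below for a profile near that of Mr1 shared it too, and its share over all tested genes was not counted. The Cnot3 order rests in part on small gaps, as cKO replicates 3 and 1 had 14.6 and 15.0 CPM of Cnot3 and 6.33 and 6.20 CPM of Mr1. It ends at dcKO replicate 2, the library whose label or dissection is in doubt. Both orders are descriptions of 6 libraries in which Cnot3 and the other genes were measured together.

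**Figure D2:**
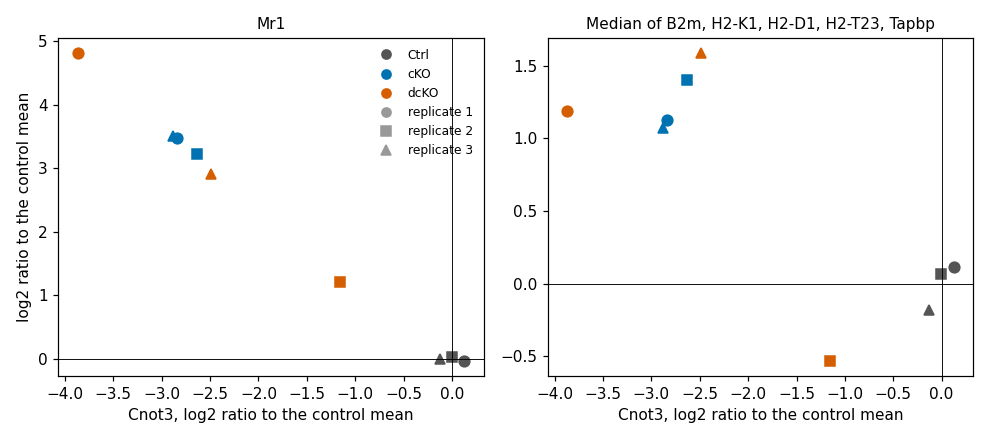
Log2 ratio to the control mean of Mr1 (left) and median of B2m, H2-K1, H2-D1, H2-T23 and Tapbp (right) against that of Cnot3, 1 point per embryo, coloured by genotype and shaped by replicate number. Mr1 steps down from dcKO replicate 1 to dcKO replicate 2 as Cnot3 goes up, whereas in the right panel dcKO replicate 2 lies below the controls at a log2 ratio of -0.53.

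B2m (chr2:122147686-122153083, plus strand), the light chain that every class I molecule and MR1 need, was the most abundant of the 10 in control. It was at 21.8, 28.3 and 34.9 CPM in Ctrl, 71.1, 74.6 and 58.6 CPM in cKO, and 86.5, 38.3 and 50.0 CPM in dcKO. All 6 mutants lay above all 3 controls, as did 11.7% of the 16951 genes that pass the laxer filter of edgeR (filterByExpr), and apart from Mr1 it was the only one of the 10 genes to do so. The log2 fold change was 1.26 (SE 0.30) in cKO and 1.04 (SE 0.30) in dcKO, with edgeR adjusted p-values of 0.0521 and 0.0672. DESeq2, the tool of the study, gave adjusted p-values of 0.00345 and 0.0198. A correction for GC content moved the dcKO value to 0.61, and leaving out dcKO replicate 1 moved it to 0.64. Patl2 overlaps B2m on the other strand, and the strand setting of the counting is not given in the sources used here.

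H2-K1 (chr17:33996017-34000347, minus strand), a classical heavy chain, was at 20.3, 18.1 and 15.4 CPM in Ctrl and 44.9, 51.1 and 47.3 CPM in cKO. In dcKO it was at 63.6, 8.0 and 100.1 CPM. The cKO embryos were close together and above every control, while the dcKO embryos split, replicates 1 and 3 exceeding every cKO embryo and replicate 2 lying under every control. The log2 fold change was 1.42 (SE 0.64, edgeR adjusted p = 0.185) in cKO and 1.68 (SE 0.64, adjusted p = 0.120) in dcKO. By DESeq2 the adjusted p-values were 0.0883 and 0.0393, so that only dcKO passed. With dcKO replicate 2 left out, the edgeR values were 1.41 (adjusted p = 0.00508) and 2.19 (adjusted p = 0.00266). Without dcKO replicate 3 the dcKO value was 0.999 by edgeR (adjusted p = 0.173).

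H2-D1 (chr17:35262730-35267499, plus strand), the second classical heavy chain, had smaller fold changes. It was at 27.1, 26.1 and 22.1 CPM in Ctrl, 39.3, 48.6 and 29.9 CPM in cKO, and 33.6, 11.7 and 75.1 CPM in dcKO. The cKO embryos again lay above the controls, and dcKO replicate 2 again lay below them. The log2 fold change of 0.65 (SE 0.51) in cKO and 0.68 (SE 0.51) in dcKO did not pass, with edgeR adjusted p-values of 0.445 and 0.398. Without dcKO replicate 3 the dcKO value turned to -0.15, and without dcKO replicate 2 it was 1.11.

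The non-classical heavy chain H2-T23 (chr17:36029773-36032855, minus strand), which encodes the ligand Qa-1 of natural killer cell receptors, was at 1.67, 3.17 and 2.24 CPM in Ctrl and 5.0, 6.06 and 5.32 CPM in cKO. In dcKO it was at 4.72, 1.58 and 10.6 CPM, with replicate 2 again under every control. Log2 fold changes were 1.21 (SE 0.58, edgeR adjusted p = 0.209) and 1.25 (SE 0.58, adjusted p = 0.184). The dcKO value was 0.42 without dcKO replicate 3 and 1.69 without dcKO replicate 2. Heavy chains are near-identical paralogs, and how reads that fit several were counted is not given in the sources used here. With the counts of H2-K1, H2-D1, H2-T23 and the other listed classical, Q-region and T-region heavy chains summed into 1 feature, the log2 fold change was 1.19 (edgeR adjusted p = 0.183) in cKO and 1.34 (adjusted p = 0.133) in dcKO.

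Tapbp (chr17:33915899-33929292, plus strand), which encodes tapasin, was at 10.4, 11.4 and 6.60 CPM in Ctrl, 15.0, 19.4 and 11.8 CPM in cKO, and 21, 8.17 and 27.0 CPM in dcKO. All cKO embryos lay above all controls, the lowest of them only just. Its log2 fold change was 0.71 (SE 0.42, edgeR adjusted p = 0.307) in cKO and 0.99 (SE 0.42, adjusted p = 0.155) in dcKO. The correction for GC content brought dcKO to 1.58 (edgeR adjusted p = 0.0454). Without dcKO replicate 3 the dcKO value was 0.63, and without dcKO replicate 2 it was 1.34 (edgeR adjusted p = 0.0190).

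The 4 genes of peptide supply had too few reads for the test in some embryos, so reads are given as well. Tap1 (chr17:34187553-34197225, plus strand) had 26, 21 and 7 reads in Ctrl, 170, 257 and 138 in cKO, and 99, 1 and 181 in dcKO. Tap2 (chr17:34203527-34216321, plus strand), its partner in the transporter, had 2, 5 and 3 reads in Ctrl, 39, 69 and 32 in cKO, and 35, 0 and 51 in dcKO. Every cKO embryo exceeded every control for both genes, as did dcKO replicates 1 and 3, whereas dcKO replicate 2 had 1 read and 0 reads in the deepest library, where 3 reads, the most that a count of 0 allows, would be 0.0766 CPM. Pooled over embryos, cKO stood at 9.38 times Ctrl for Tap1 (exact 95% interval 7.08 to 12.6) and at 13 times for Tap2 (6.62 to 26.7). These intervals cover counting error only and not the spread between embryos.

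Neither gene reached the level of the laxer filter, 0.385 CPM before TMM scaling, in all controls, Tap1 doing so in 2 and Tap2 in 0 of them, so both entered a test with that filter through mutant embryos in which they are high. With that limit, DESeq2 on the genes passing it, a choice made after the data were seen, gave Tap1 a log2 fold change of 3.13 (SE 1.05, adjusted p = 0.0276) and Tap2 one of 3.56 (SE 1.23, adjusted p = 0.0343) in cKO. In dcKO the DESeq2 values were 2.06 (SE 1.05, adjusted p = 0.171) and 2.77 (SE 1.24, adjusted p = 0.111). Pooled over all dcKO embryos, Tap1 stood at 3.79 times Ctrl (exact interval 2.83 to 5.18) and Tap2 at 6.27 times (3.25 to 13.5). With dcKO replicates 1 and 3 alone, the ratios were 6.24 (4.65 to 8.51) and 10.4 (5.37 to 22.4). Here too the intervals cover counting error only.

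Psmb8 (chr17:34197721-34201454, plus strand) had 3, 7 and 2 reads in Ctrl, 15, 19 and 7 in cKO, and 21, 12 and 36 in dcKO. Psmb9 (chr17:34181987-34187764, minus strand) had 0, 9 and 10 reads in Ctrl, 44, 98 and 10 in cKO, and 48, 0 and 70 in dcKO. For both, cKO replicate 3 lay within the control range in CPM, at 0.264 for Psmb8 and 0.377 for Psmb9, so cKO and Ctrl overlapped. The pooled ratio of cKO to Ctrl was 3.06 (exact 95% interval 1.58 to 6.40) for Psmb8 and 7.17 (4.44 to 12.2) for Psmb9, again with counting error only. Of the 152 reads of Psmb9 in cKO, 98 came from replicate 2, and cKO replicates 1 and 3 alone gave a ratio of 3.82 (2.23 to 6.82). Its difference of mean log2 CPM between cKO and Ctrl ran from 1.66 without Ctrl replicate 1 to 3.99 without cKO replicate 3. The Psmb9 and Tap1 gene models share bases on opposite strands, so without the strand setting their reads cannot be told apart there.

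Per kilobase of exon, the control levels ran from B2m at 32.9 CPM per kb over H2-D1 at 9.73, H2-K1 at 6.09, Tapbp at 2.60 and H2-T23 at 0.817 down to a group of 5. Tap1, Mr1, Psmb9, Psmb8 and Tap2, at 0.143, 0.0901, 0.0735, 0.0534 and 0.0386 CPM per kb, followed each other within the spread of the control embryos, and none of the first 5 overlapped its neighbour below. Mr1 and the inducible genes of peptide supply thus started from the lowest levels, while B2m lay at the 86.6th percentile of the genes tested.

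Read as a group, the 9 genes other than Mr1 had a median ratio to the control mean of 2.55, 2.87 and 2.32 in cKO replicates 1 to 3 and of 3.54, 0.468 and 5.62 in dcKO replicates 1 to 3. Every mutant but dcKO replicate 2 was thus above control by this median. Beyond Mr1, edgeR called 0 of the 5 tested genes in either mutant at an adjusted p under 0.05 and a log2 fold change above 1, where it called 0.0146% of all genes higher in cKO and 0.0% in dcKO. At an unadjusted edgeR p under 0.05, 2 of the 5 (B2m and H2-K1) were higher in cKO, beside 15.3% of all genes, and 3 of the 5 (B2m, H2-K1 and Tapbp) in dcKO, beside 18.0%. DESeq2 called 1 of the 5 higher in cKO (B2m), against 4.94% of all genes, and 2 of the 5 in dcKO (B2m and H2-K1), against 4.66%. The median log2 fold change of the 5 was 1.21 in cKO and 1.04 in dcKO, beside 0.01 and 0.11 over all genes tested. Both comparisons use the same 3 controls, so they are not independent of each other.

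Over all 9 genes other than Mr1, whatever their reads, all 3 cKO embryos exceeded all 3 controls for 7, where 28.6% of genes passing the laxer filter did so. An exact permutation test of 3 against 3 gave p = 0.1 for each of these 7, the smallest p-value it can give, and p = 0.2 for Psmb8 and Psmb9. In dcKO this held for 1 of the 9, B2m, beside 14.7% of genes. By embryo, 9, 9 and 7 of the 9 genes were above every control in cKO replicates 1, 2 and 3, and 9, 1 and 9 in dcKO replicates 1, 2 and 3. The shares of genes passing the laxer filter were 41.9%, 41.0% and 41.1% in the cKO embryos and 45.1%, 43.3% and 41.7% in the dcKO embryos. Without dcKO replicate 2, edgeR called 5 of the 5 tested genes higher in dcKO, against 7.23% of all genes, and 2 of the 5 (B2m and H2-K1) higher in cKO, against 5.72%. The call in dcKO thus turned on that 1 library.

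**Figure D3:**
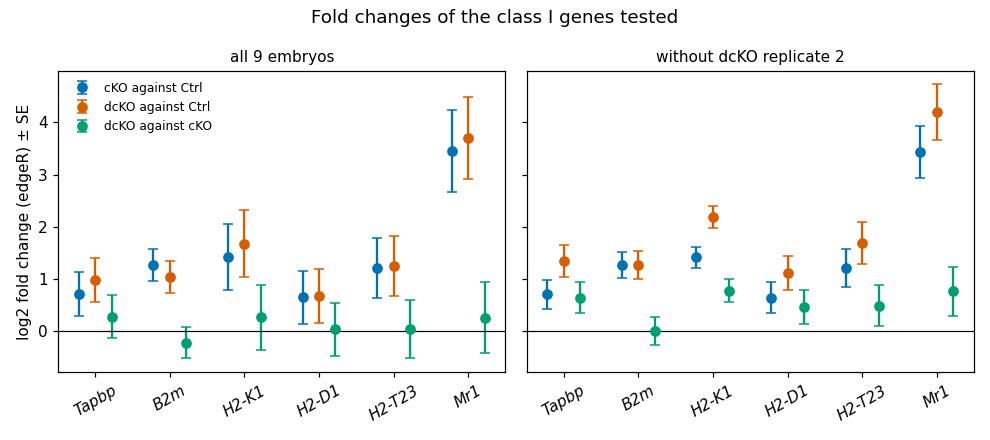
Log2 fold change by edgeR with its standard error for the 6 genes tested, in cKO against Ctrl (blue), dcKO against Ctrl (orange) and dcKO against cKO (green), with all 9 embryos (left) and without dcKO replicate 2 (right). Mr1 lies at 3.45 and 3.70 on the left, the other 5 between 0.65 and 1.68 in the 2 comparisons with Ctrl, and the standard errors of all genes are narrower on the right.

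Between dcKO and cKO, 0 of the 5 genes other than Mr1 were called by edgeR, which called 0.0% of all genes higher and 0.0146% lower, and 0 by DESeq2, which called 0.0292% higher and 0.351% lower. Their log2 fold changes ran from -0.22 (SE 0.30) for B2m to 0.28 (SE 0.42) for Tapbp, with a median of 0.04 beside 0.07 over all genes. Unadjusted edgeR p-values under 0.05 were held by 2.05% of all genes for higher and 2.38% for lower in dcKO, and by 0 of these 5 genes. With standard errors of 0.51 to 0.62 for the heavy chains, these values do not show that the mutants were alike. With the collection number of the labels as a block, edgeR called 3 of the 5 higher in dcKO than in cKO, against 9.86% of all genes. In that fit cKO replicate 1 and dcKO replicates 1 and 2 share their number with no other embryo and drop out, so dcKO is replicate 3 alone.

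Mr1 was also set beside every other tested gene by the root mean square difference of log2 CPM, relative to the control mean, over the 9 embryos. The nearest were C330021F23Rik, an uncharacterised transcript, at 0.551, Rgs7, a regulator of G protein signalling, at 0.557, Spag16, an axoneme protein of sperm flagella, at 0.568, Prelid2 at 0.568 and Nqo1, a quinone reductase, at 0.675. This measure weighs the size of the rise, by which Mr1 was chosen, so genes with smaller rises lie further from it by construction. Among the tested genes H2-K1 was at 1.72 (rank 377), B2m at 1.79 (rank 465) and H2-T23 at 1.89 (rank 650). Tapbp was at 2.09 (rank 1215) and H2-D1 at 2.36 (rank 2645), while Tap1, Tap2, Psmb8 and Psmb9 were not ranked. In dcKO replicate 2, Rgs7 stood at 3.13, C330021F23Rik at 3.09, Nqo1 at 2.49 and Prelid2 at 2.37 times the control mean, Spag16 at 1.16 times.

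The tested genes flanking Mr1 on chromosome 1 had smaller values, some of which passed a test. Stx6, the nearest on one side, had a log2 fold change of -0.38 (SE 0.17, edgeR adjusted p = 0.192) in cKO and -0.25 (SE 0.17, adjusted p = 0.363) in dcKO. Ier5, the nearest on the other side, stood at -0.88 (SE 0.30, edgeR adjusted p = 0.0994) and -0.64 (SE 0.30, adjusted p = 0.183), with DESeq2 adjusted p-values of 0.0447 and 0.147. With dcKO replicate 2 left out it was at -0.88 (edgeR adjusted p = 0.00711) in cKO and -1.13 (edgeR adjusted p = 0.00491) in dcKO, where it was thus called lower, as were 2.58% of all genes. For Glul, Cacna1e and Xpr1 the log2 fold changes lay between -0.41 and 0.28, and for the low gene BC034090 they were 1.26 (SE 0.66, edgeR adjusted p = 0.246) and 0.31 (SE 0.66, adjusted p = 0.778).

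Some further heavy chains were called higher by DESeq2. Of 19 other heavy chain and class I-like genes 7 were tested, and DESeq2 called 3 of them higher in cKO (H2-Q7, H2-Q4 and H2-T22), against 4.94% of all genes, and 2 in dcKO (H2-Q7 and H2-Q4), against 4.66%, while edgeR called 0. Leaving out dcKO replicate 2, 9 were tested and edgeR called 4 higher in cKO (H2-Q7, H2-Q4, H2-T22 and H2-M3), against 5.72% of all genes, and the same 4 and Cd1d1 in dcKO, against 7.23%. H2-Q7 was at 1.79, 1.74 and 1.41 CPM in Ctrl, 6.28, 8.44 and 6.11 CPM in cKO, and 7.30 and 1.76 CPM in dcKO replicates 1 and 2, and at 12.1 times the control mean in replicate 3. H2-Q4 was at 1.55, 3.87 and 2.74 CPM in Ctrl, 12.6, 10.5 and 15.0 CPM in cKO, and 28.0, 1.66 and 21 CPM in dcKO. In both, dcKO replicates 1 and 3 exceeded every control while replicate 2 was within the control range. The median log2 fold change of the 7 was 0.79 in cKO and 0.78 in dcKO.

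Few genes of the rest of the loading route passed a test. Of 11 genes for peptide trimming, chaperoning and translocation, DESeq2 called 1 higher in each mutant, against 4.94% of all genes in cKO and 4.66% in dcKO. It was Erap1, which encodes the aminopeptidase that trims peptides in the endoplasmic reticulum. Erap1 was at 7.91, 7.74 and 7.72 CPM in Ctrl, 34.8, 31.3 and 23.1 CPM in cKO, and 57.1, 10.8 and 25.6 CPM in dcKO, so that all 6 mutants exceeded all controls. The log2 fold change was 1.93 (SE 0.49, DESeq2 adjusted p = 0.00219, edgeR adjusted p = 0.0574) in cKO and 2.00 (SE 0.49, DESeq2 adjusted p = 0.00165, edgeR adjusted p = 0.0529) in dcKO. The median over the 11 genes was 0.19 and 0.36. In the fit without dcKO replicate 2, edgeR called Erap1 higher in both mutants and the tapasin homologue Tapbpl in dcKO, 1 and 2 of the 11, against 5.72% and 7.23% of all genes.

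Among 14 subunits of the constitutive 20S proteasome, 0 were called by edgeR or DESeq2 in either mutant, with median log2 fold changes of 0.05 and 0.15. Psma1, an alpha ring subunit, had 0.38 (SE 0.18, edgeR adjusted p = 0.216) and 0.54 (SE 0.18, adjusted p = 0.0927). The 5 other proteasome parts listed, which include the activator subunit Psme3 and the assembly factor Pomp, likewise had 0 calls by either tool. Their medians of -0.38 and -0.18 were the values of Psme3 itself. Of all genes edgeR called 0.0146% higher in cKO and 0.0% in dcKO, and DESeq2 4.94% and 4.66%. Without dcKO replicate 2, edgeR called 1 of the 5 higher in dcKO, the activator subunit Psme1, against 7.23% of all genes, and 0 in cKO, against 5.72%, and 0 of the 14 constitutive subunits in either mutant. In cKO, 2 of these 5 parts lay above every control and 2, Psme3 and Pomp, below, beside 28.6% and 24.1% of genes passing the laxer filter. Pomp stood at -0.57 (SE 0.27, edgeR adjusted p = 0.208) in cKO and -0.32 (SE 0.27, adjusted p = 0.443) in dcKO.

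A few genes that control class I and interferon responses were called higher. Of 26 regulators tested, DESeq2 called 4 higher in cKO, among them Ddx58, Irf9 and Irf1, against 4.94% of all genes. In dcKO it called 3 higher, among them Ddx58 and Irf9, against 4.66%, and 1 lower, Socs3, against 3.79%, while edgeR called 0 in either mutant. Without dcKO replicate 2, edgeR called 4 of 27 higher in cKO, against 5.72% of all genes, and in dcKO 5 higher, against 7.23%, and Socs3 lower, against 2.58%. Irf9, Ddx58 and Irf1 were among those higher in both mutants, and Ifih1 in dcKO. Irf9, a subunit of the factor that carries the type I interferon signal, had a log2 fold change of 1.52 (SE 0.44) in cKO and of 1.47 (SE 0.44) in dcKO. It was at 9.09, 6.99 and 8.47 CPM in Ctrl, 21.1, 35.0 and 14.3 CPM in cKO, and 31.0, 10.4 and 26.6 CPM in dcKO. It differs from most of the class I genes in that dcKO replicate 2 lay above every control, though under every other mutant.

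Nlrc5, the transactivator of class I genes, was named for its role after its values were seen. It had 10, 3 and 7 reads in Ctrl, 92, 42 and 109 in cKO, and 84, 0 and 79 in dcKO, and so split the dcKO embryos like Tap1 and Tap2. The interferon ligand genes themselves were nearly silent: of 21 such genes 2 had any read, 17 reads in all over 9 embryos.

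Of 18 interferon-stimulated genes tested, DESeq2 called 7 higher in cKO, against 4.94% of all genes, and 7 in dcKO, against 4.66%, with 0 lower in either, and edgeR called 0. Without dcKO replicate 2, edgeR called 10 of 19 higher in cKO, against 5.72% of all genes, and 10 in dcKO, against 7.23%. Their median log2 fold change was 1.24 in cKO and 0.89 in dcKO. Trim25, a ubiquitin ligase of the RIG-I pathway, was at 6.40, 9.07 and 8.40 CPM in Ctrl, 39.1, 44.6 and 32.2 CPM in cKO, and 49.7, 9.43 and 39.5 CPM in dcKO. Its DESeq2 adjusted p-values were 0.00027 in cKO and 0.00132 in dcKO. Herc6 and Trim21, also ubiquitin ligases of the interferon response, had log2 fold changes of 2.11 (SE 0.45) and 2.11 (SE 0.50) in cKO and of 1.54 (SE 0.45) and 1.89 (SE 0.50) in dcKO. The 18 genes had a median ratio to the control mean of 2.47, 2.60 and 1.82 in cKO replicates 1 to 3 and of 2.51, 1.13 and 1.96 in dcKO replicates 1 to 3, so that dcKO replicate 2 was the lowest of the 6 mutants.

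**Figure D4:**
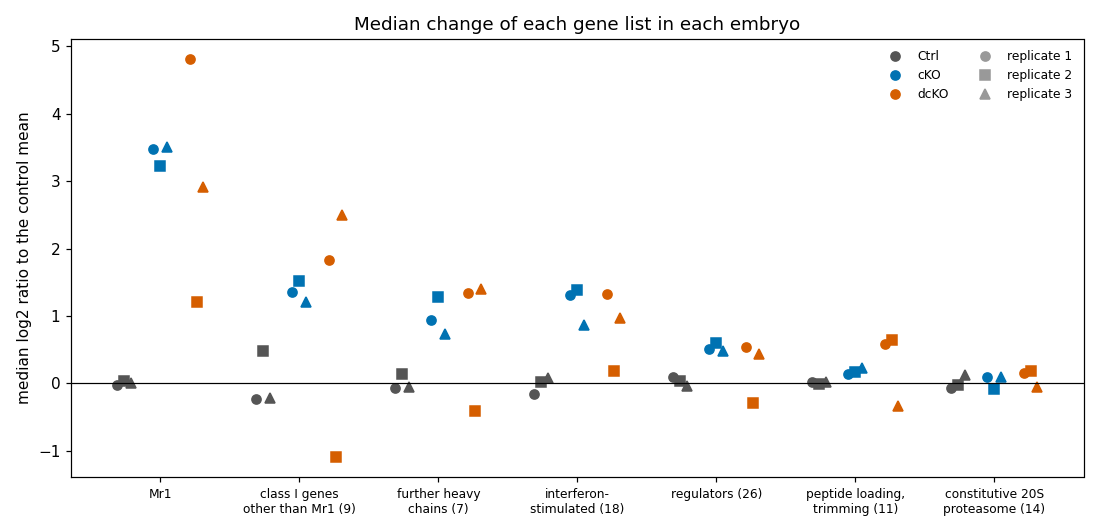
Median log2 ratio to the control mean for Mr1, for the 9 other class I genes and for 5 further lists, by embryo, with the number of genes in brackets, coloured by genotype and shaped by replicate number. The 9 class I genes are all those other than Mr1, and the further lists hold their tested genes. In dcKO replicate 2 the class I median lies at -1.10 and the interferon-stimulated one at 0.18 while Mr1 lies at 1.20, and the constitutive 20S proteasome stays near 0 in all embryos.

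Markers of other cells were read beside these changes. The summed level of 16 microglia and macrophage markers was 68.0 to 79.4 CPM in Ctrl, 96.0 to 175 CPM in cKO and 37.9 to 73.1 CPM in dcKO. In cKO all 3 embryos lay above the controls, and cKO replicate 2, with the highest sum, also had the highest class I median. In dcKO replicates 1 and 3 the sums were within the control range, and the 5 tested class I genes other than Mr1 were there at 2.28 and 3.00 times control by their median. In dcKO replicate 2 the sum was 37.9 CPM, below every control, and that median was 0.694 times control. The defining markers Aif1, Trem2 and Itgam were at 0 in 1 or more dcKO embryos, and Itgam in a cKO embryo. The part of immune cells in the class I values was not tested in either mutant.

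The class II gene H2-Ab1, which encodes a chain made by professional antigen-presenting cells, had 4, 9 and 11 reads in Ctrl, 187, 257 and 159 in cKO, and 415, 23 and 500 in dcKO. All 6 mutants lay above all controls, and the gene was below the main filter. When dcKO replicate 2 was left out, edgeR tested 2 of the list and called H2-DMa higher in dcKO, against 7.23% of all genes, and 0 in cKO, against 5.72%. Summed markers of endothelial cells were 457 to 532 CPM in Ctrl, 376 to 525 in cKO and 253 to 448 in dcKO, and those of meningeal fibroblasts 819 to 889, 481 to 736 and 352 to 535 CPM. Neither of these sums was above its control range in any mutant. Pericyte markers summed to 180 to 232 CPM in Ctrl, 134 to 174 in cKO and 81.7 to 208 in dcKO.

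The sums of 9 erythroid markers were 7691 to 11462 CPM in Ctrl, 9532 to 14502 in cKO and 4948 to 6785 in dcKO, with cKO replicates 1 and 3 above every control and all dcKO embryos below them. Those of 9 cortical progenitor markers were 3344 to 4277 CPM in Ctrl, 3139 to 3517 in cKO and 3344 to 3949 in dcKO. Of these 9 markers, 6 lay below every control in all cKO embryos and 1 above every control, where 24.1% of genes passing the laxer filter lay below and 28.6% above. In dcKO 1 of the 9 lay below and 0 above, beside 10.3% and 14.7% of genes. The 8 markers of intermediate progenitors and neurons summed to 1290 to 1742 CPM in Ctrl, 969 to 1396 in cKO and 764 to 1627 in dcKO. The part of these cell types in the class I values was not tested.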

How the data were processed

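Per the labels and the study's methods, the authors made stranded libraries from poly(A) RNA, cut adapters off with Cutadapt, mapped the reads to mm39 with STAR and summed them per gene with featureCounts. The deposited values are raw counts of 57010 genes in 9 embryos, whole numbers with no filter. The strand setting and the treatment of multiply mapped reads are not given in the sources used here. Here, the 13680 genes whose reads exceeded 10 in all embryos were tested with edgeR 4.0.16 (TMM factors, quasi-likelihood test, 1 model of 9 embryos, Benjamini-Hochberg adjustment) in R 4.3.3 and called where the adjusted p was under 0.05 and the log2 fold change beyond 1 in size. DESeq2 1.42.0, which the study used, and limma 3.58.1 voom with sample quality weights were alternatives, as were other filters, factors, blocks and left-out embryos. edgeR's filterByExpr kept 16951 genes and is called the laxer filter. Low genes were compared by an exact two-sided permutation test and by pooled reads with exact intervals. The log2 ratio of an embryo to the control mean uses log2 CPM with a prior count of 0.5. Identifiers of 52029 genes matched GENCODE M21 on GRCm38, which gave coordinates, exon lengths and GC content. The fits were tested on simulated data.

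The 10 genes, the further lists and the markers were chosen with earlier results of these data known. Named in the text are the 10 genes, from each further list up to 3 called genes per direction with the smallest DESeq2 p (the 2 most expressed where none was called), the 5 genes nearest to Mr1 by profile and the tested genes around Mr1. Irf1, Nlrc5, H2-Q6, Lgals3bp, Mrc1, Abcc9, Hba-x, H2-M3, Cd1d1, Tapbpl, Psme1, Ifih1, H2-DMa and the promoter motifs were added after their values were seen. Some genes that this rule names are not reported here.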

Additional observations from a re-analysis of the deposited data

Results flagged for a closer look

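Between dcKO and cKO, 7 of the 147 tested genes of the gene and marker lists were called lower by DESeq2's test of the difference between the 2 mutants and 0 higher, against 0.351% and 0.0292% of all genes. Ctss, a lysosomal protease of class II presentation, differed by -1.20 on the log2 scale (DESeq2 adjusted p = 0.00524), dcKO minus cKO. The macrophage marker Mrc1 differed by -1.64 (DESeq2 adjusted p = 0.00379). By DESeq2 the endothelial marker Cdh5 differed by -1.11, the pericyte marker Abcc9 by -1.12, and the embryonic globins Hbb-y and Hba-x by -1.06 and -1.44. The last was Lgals3bp, described next. None is among the 10 genes, and edgeR called none of them.

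Lgals3bp, an interferon-stimulated gene that encodes a secreted galectin-binding protein, was at 0.938, 1.49 and 1.30 CPM in Ctrl, 2.30, 2.90 and 1.77 CPM in cKO, and 0.805, 0.511 and 0.455 CPM in dcKO, with no overlap between the 3 genotypes. DESeq2 gave dcKO against cKO a log2 fold change of -1.98 with an adjusted p-value of 0.0166, where edgeR gave 0.42. Neither mutant passed against control, with adjusted p-values of 0.178 in cKO and 0.107 in dcKO by DESeq2 and of 0.164 and 0.117 by edgeR.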

How the results depend on the processing

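With all 9 embryos, edgeR called 0 of the 5 tested class I genes other than Mr1 in each comparison. Fits with filterByExpr or with no filter count over 9 genes, as Tap1, Tap2, Psmb8 and Psmb9 are then tested. None of these 4 reaches the level of filterByExpr in all controls, so they enter it through mutant embryos in which they are high. Calls among them with that filter are thus no independent support. In cKO against Ctrl, upper-quartile factors, DESeq2, DESeq2 with the replicate block, no filter and an adjusted p under 0.1 each gave 1 call. In that comparison limma voom with quality weights, the 6 embryos alone, the collection number block, DESeq2 with filterByExpr and DESeq2 without the second dcKO embryo each gave 3, and filterByExpr without that embryo gave 4. Leaving out single embryos gave 0 to 2 calls there, the most without dcKO replicate 2, and a median log2 fold change of 1.01 to 1.26. In dcKO against Ctrl, the GC correction, DESeq2 with filterByExpr and an adjusted p under 0.1 each gave 1 call, DESeq2 and limma voom with quality weights 2, the collection number block 4, DESeq2 without the second dcKO embryo 5, and filterByExpr without it 6. Leaving out single embryos gave 0 to 5, with 5 only without dcKO replicate 2 and 1 without dcKO replicate 3. Between the mutants the collection number block gave 3 calls and a median of 1.24. The difference of mean log2 CPM of Psmb9 ran from -0.23 to 3.69 in dcKO against Ctrl and from -3.34 to 0.58 between the mutants when single embryos were left out, and was -0.20 without Ctrl replicate 1 in the former. The cause of these shifts was not tested. For most of these fits the share of all genes called is not given. The counts therefore show only how calls in the list moved with the fit, and cannot be read as an excess over other genes. In the comparisons with Ctrl the log2 fold changes of Mr1, B2m, H2-K1, H2-T23 and Tapbp kept their sign under all 25 alternatives, and that of H2-D1 did except without dcKO replicate 3 in dcKO, where it was -0.15. For the 5 genes other than Mr1, single values came to pass the threshold under an alternative in 51 cases, while Mr1 against Ctrl is given without a test.

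Embryos sharing a replicate number did not deviate together: their mean correlation was -0.17 over 9 pairs, against 0.08 for 18 pairs with different numbers. With the replicate block edgeR called 0 genes of the list in each comparison. DESeq2 with that block, a fit added after seeing the data like the other DESeq2 fits with a filter, block or left-out embryo, called B2m in cKO and none of the 5 in dcKO. In the collection number block only 3 pairs of embryos share a number, the other 3 embryos drop out and dcKO is replicate 3 alone. What the number stands for is not stated. For Tap1, Tap2, Psmb8 and Psmb9, 0 to 26 control reads limit the precision.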

Other observations

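Some genes outside antigen presentation, or on its edge, divided the embryos in the same way or in another. H2-Q6, a further heavy chain of the Q region below the main filter, had 4, 5 and 2 reads in Ctrl, 91, 78 and 67 in cKO, and 212, 7 and 180 in dcKO. Its dcKO replicate 2 had about as few reads for its depth as the controls. The macrophage marker Mrc1 was at 8.89, 9.92 and 15.1 CPM in Ctrl, 37.9, 39.7 and 23.3 CPM in cKO, and 15.9, 8.66 and 8.03 CPM in dcKO, with cKO above the controls and dcKO overlapping them.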
